A study of Mus musculus with 6 samples.

Results

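The H2 complex, the mouse major histocompatibility complex on chromosome 17, held 246 of the 94951 regions in which CTCF peaks were called in thymic regulatory T cells. These 246 were every merged region that overlapped chr17:34000001-37700000 (mm39, counted from 1), whatever the lists that called it. A merged region is a stretch covered by peaks that chain together at an overlap of at least 1 bp over the 6 deposited peak lists. Another 3467 regions lay on the rest of chromosome 17. The 6 lists came from 3 libraries of wild-type cells (WT) and 3 of cells labelled Cgas Knockout (Cgas_KO), which lack the cytosolic DNA sensor cGAS. All were of Treg from the thymus, and no age, sex, strain or treatment was used here. CTCF was profiled by CUT&RUN, in which a nuclease guided by an antibody releases the DNA next to the bound protein for sequencing. The stated question was how CTCF binding compares between the genotypes. Nothing in the labels tells if replicates are separate mice, so p-values here reflect the spread among these 6 libraries alone, and that spread may be technical. The peak lists offer no readout of Cgas expression or of Treg markers, so neither label was checked.

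CTCF is a zinc-finger protein that binds a long DNA motif and, by halting cohesin, anchors chromatin loops and the borders between domains. The H2 complex encodes the proteins that show peptides to T cells. Class I molecules, such as those of H2-K1 and H2-D1, present peptides to CD8 T cells, and class II molecules, such as the pair of chains from H2-Aa and H2-Ab1, present them to CD4 T cells. Class II molecules on thymic stromal and dendritic cells select the precursors of regulatory T cells, while mouse T cells themselves normally make class I but not class II. In human cells, CTCF sites between class II genes are known to take part in their transcription.

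The complex was read in 3 portions along the coordinate. The class II side, from 34 to 34.77 Mb, was taken to hold H2-K1, a class I gene, and the class II genes. With them are Tap1, Tap2, Psmb8 and Psmb9, which make and carry the peptides that class I molecules load. Where in this portion H2-K1 lies was not checked, so its first part may lie before that gene. Class III, from 34.77 to 35.48 Mb, runs from the receptor gene Notch4 over complement genes (C4b, Cfb, C2), heat-shock genes (Hspa1a, Hspa1b) and cytokine genes (Ltb, Tnf, Lta) to the RNA helicase gene Ddx39b. The class I side, from 35.48 to 37.7 Mb, starts with H2-D1 and holds the H2-Q, H2-T and H2-M families. In the gene order of GRCm38.p6, the annotation at hand, 25 protein-coding genes stand from H2-K1 up to Notch4, 57 from Notch4 up to H2-D1 and 78 from H2-D1 up to H2-M3. That table is of another build than the peak lists, so the borders are approximate, were placed from general knowledge of the map, and no region is assigned to a gene. No sequence is shown, because no genome of the build of the lists was used here.

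Each list held 27128 to 31707 peaks on chromosomes 1 to 19, X and Y. Read depth is unknown, since signal outside peaks is not in the lists. The height of a peak, its maximum signal, was a whole multiple of 1 step in each list, as checked for peaks under 200 steps. That step was 0.199 ± 0.0119 signal units for WT libraries and 0.118 ± 0.00196 for Cgas_KO libraries (SD, 3 each). The sources used here do not define a step. Heights are therefore compared between libraries as percentiles within the whole list, where 100 is the tallest peak. Heights in steps are rounded to whole steps and given only as values.

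Peaks were crowded in the complex. The WT libraries had 122, 136 and 137 peaks in it and the Cgas_KO libraries 150, 145 and 143. Per Mb this came to 35.6 ± 2.27 for WT and 39.5 ± 0.974 for Cgas_KO, whereas the 88.4 Mb of the rest of chromosome 17 had 12.1 ± 0.274 and 12.8 ± 0.839 (SD, 3 libraries each). The complex was thus 3.01 ± 0.205 times as dense as the rest of its chromosome (SD, n = 6), at 2.76 to 3.25 times in the single libraries and denser in 6 of 6 (two-sided exact sign-flip test over the libraries, p = 0.03125, the smallest that 6 libraries can give, Benjamini-Hochberg adjusted 0.0391 over 10 tests). By length, peaks covered 3.18 ± 0.116 times as large a share of the complex as of the rest (SD, n = 6, exact sign-flip p = 0.03125, adjusted 0.0391). The libraries read the same genome, so this test speaks of how reproducibly these libraries showed the difference. When chromosome 17 was divided into 24 windows of 3.7 Mb laid end to end from the complex, the complex ranked 1 by peaks, with a mean of 138.8 per library against a median of 46.2 over the windows. The window from 26.6 to 30.3 Mb followed with 125.5, and 1 window stands between it and the complex. The window directly after the complex, up to 41.4 Mb, held 15.2.

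Peaks in the complex were also taller than elsewhere on the chromosome. The median peak of the complex stood at percentile 69.9 ± 4.35 of its list in WT and 69.6 ± 2.26 in Cgas_KO, and the median peak of the rest of chromosome 17 at 53.6 ± 2.11 and 53.5 ± 0.889 (SD, n = 3). The gap was 12.4 to 18.3 percentile points in the 6 libraries and had the same sign in 6 of 6 (exact sign-flip p = 0.03125, adjusted 0.0391). Peak width showed no such regularity. The median width in the complex exceeded that of the rest in 4 of 6 libraries (exact sign-flip p = 0.375, adjusted 0.417).

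**Figure D1:**
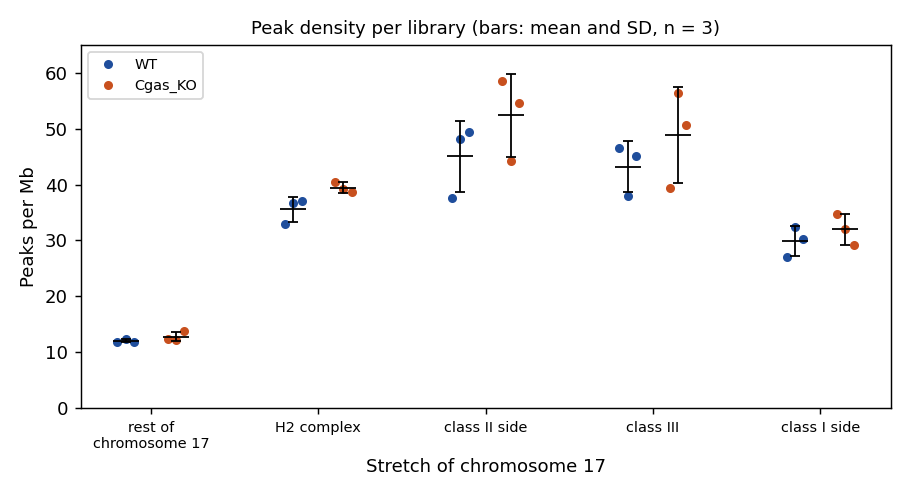
Peaks per Mb (vertical axis) on the rest of chromosome 17, in the whole H2 complex and in its 3 portions, 1 point per library, with the mean and SD of 3 libraries per genotype. All 6 libraries lie at 11.9 to 13.8 peaks per Mb on the rest of the chromosome and at 33.0 to 40.5 in the complex.

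The portions differed in density. The class II side held 48.7 ± 7.38 peaks per Mb, class III 46.0 ± 6.88 and the class I side 30.9 ± 2.68 (SD, n = 6). Over the rest of chromosome 17 these were 3.90 ± 0.512, 3.7 ± 0.559 and 2.49 ± 0.246 times as dense, each in 6 of 6 libraries (exact sign-flip p = 0.03125, adjusted 0.0391, for each). The class II side exceeded the class I side 1.57 ± 0.189 times, and class III exceeded it 1.5 ± 0.286 times, both in 6 of 6 libraries (n = 6, exact sign-flip p = 0.03125, adjusted 0.0391). The class II side and class III were not told apart, with a ratio of 1.09 ± 0.267 that was above 1 in 4 of 6 libraries (n = 6, exact sign-flip p = 0.594, adjusted 0.594). The place of class III in this order depended on the approximate borders. With both borders 0.1 Mb towards the start, the class II side, class III and the class I side were 4.40, 2.61 and 2.74 times as dense as the rest. With both 0.1 Mb towards the end they were 3.87, 3.71 and 2.43 times as dense. Peaks covered 19.6% ± 1.58 of the class II side, 17.0% ± 1.89 of class III and 11.5% ± 1.3 of the class I side (SD, n = 6).

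Within the portions, peaks sat in blocks. In bins of 100 kb, the mean over the 6 libraries was highest from 35.4 to 35.5 Mb, the bin over the border of class III and the class I side, at 9.83 peaks, with 8 to 13 per library. Bins between 34.1 and 34.5 Mb on the class II side had 6.67 to 8, and the bin from 36.1 to 36.2 Mb on the class I side had 6.67. The low bins were 34.9 to 35.0 Mb in class III, with a mean of 0.667, and, on the class I side, those from 36.7 to 37 Mb, 37.4 to 37.5 Mb and 37.6 to 37.7 Mb, with 0.167 to 0.833. The longest stretch without any region was chr17:35658852-35731950, 73.1 kb long, against a median gap of 5.38 kb between neighbouring regions of the complex.

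**Figure D2:**
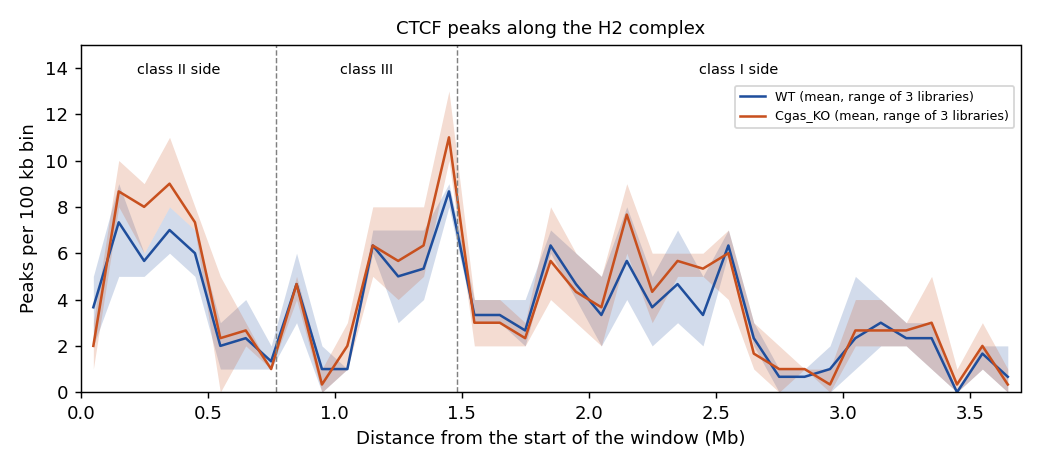
Peaks per 100 kb bin (vertical axis) against distance from the start of the window in Mb, as the mean (line) and range (shading) of 3 WT and of 3 Cgas_KO libraries, with dashed lines at the approximate borders of the portions. Both genotypes rise at 0.1 to 0.5 Mb and again up to 1.5 Mb, and both lie at 1 peak per bin or under from 2.7 to 3 Mb.

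Regions of the complex were more often called by every list than regions elsewhere. All 6 lists called 48 of the 246, or 19.5%, where 5.16% of the regions of all chromosomes and 5.71% of those on the rest of chromosome 17 were called by all 6. A single list called 112 of them (45.5%), against 67.4% on the rest of chromosome 17. Between those ends, 28 were in 2 lists, 21 in 3, 20 in 4 and 17 in 5. Of the 106 to 122 regions that each list held in the complex, 39.3% to 45.3% were held by all lists, against 17.7% to 20% on the rest of the chromosome. For each pair of lists, the bases in both divided by the bases in at least 1 of them gives a Jaccard index, which averaged 0.313 in the complex and 0.174 on the rest, and was higher in the complex for 15 of 15 pairs. Peaks cover about 3 times as much of the complex, which makes overlap of unrelated peaks more frequent there. The part of that crowding in these shares was not tested, and no test is given for them, since all pairs share libraries. Where a list had to cover 50% of a region to count, 10 regions of the complex were common to all lists, 4.10% of its regions against 0.643% over all chromosomes.

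**Figure D3:**
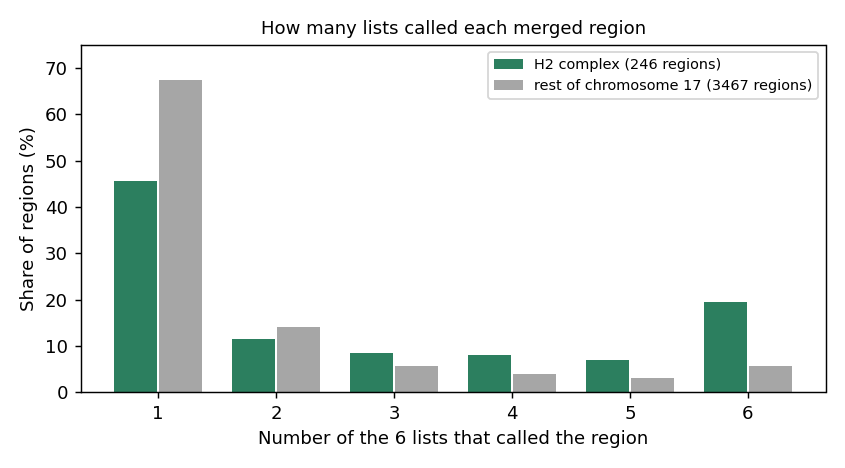
Share of merged regions in % (vertical axis) by the number of the 6 lists that called them, for the 246 regions of the complex and the 3467 of the rest of chromosome 17. The complex has fewer regions of a single list (45.5% against 67.4%) and more of all 6 (19.5% against 5.71%).

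Common regions were divided unevenly along the complex. The class II side had 13 of its 52 regions in all 6 lists (25%), class III 13 of 58 (22.4%) and the class I side 22 of 136 (16.2%). Per Mb these were 16.9, 18.3 and 9.91 common regions, against 2.24 on the rest of chromosome 17. They were closely spaced, with a median gap of 22.3 kb between neighbours in the complex and 93.6 kb on the rest of the chromosome. The 13 of the class II side all lay in its first part and ended at 34459425, and the 13 of class III all lay in its last part and began at 35128697. The 669 kb between them, chr17:34459426-35128696, held 46 regions but none common to all lists, and 25 of the 46 were of a single list. This stretch was singled out after its values were seen. It had 14, 10 and 17 peaks in the WT libraries and 13, 13 and 19 in the Cgas_KO libraries, a mean of 21.4 per Mb, so it was less dense than the complex as a whole but above the rest of the chromosome. Genotypes overlapped in it. On the class I side, the 468 kb of chr17:36628026-37095945 had 21 regions, 17 of them of a single list, and the last 471 kb of the window had 19 with none in all lists.

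Common regions were also the taller ones. Regions of a single list in the complex had a median percentile of 36.2, those of 3 lists 55.6 and those of all 6 lists 90.4, where a region counts by its highest peak in each list, averaged over the lists that hold it. Over all chromosomes the corresponding medians were 28.1, 52.0 and 85.4. They were wide too, with a median of 10609 bp in the complex against 7769 bp on the rest of chromosome 17. Merging chains neighbouring peaks, so where peaks are crowded a region grows. The widest was chr17:34124772-34151959 on the class II side, 27188 bp, in which the 6 lists together had 19 peaks.

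**Figure D4:**
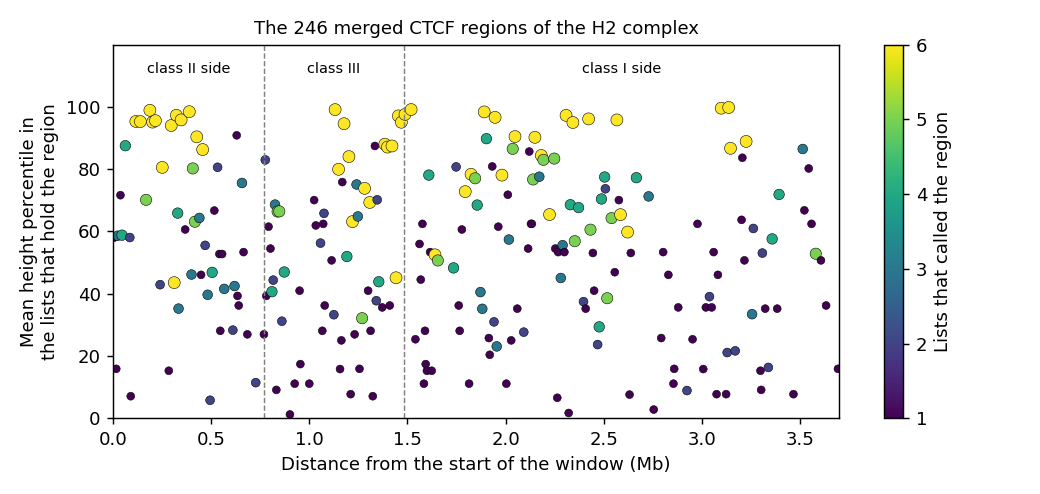
Each of the 246 regions by its distance from the start of the window in Mb (horizontal axis) and its mean height percentile in the lists that hold it (vertical axis), with colour and size by the number of lists. Regions of all 6 lists crowd near the top, and none lies between about 0.46 and 1.13 Mb.

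Of the 48 common regions, 22 (45.8%) stood within the top 10% of every list by height, against 23.8% of the 4896 common regions of all chromosomes. They were 8 of 13 on the class II side, 4 of 13 in class III and 10 of 22 on the class I side. In the top 1% of every list there were 2 of the 48 (4.17%), both on the class I side. This was close to the 3.82% of the 4896. A region counts by its highest peak, and merging chains more peaks where they are crowded. The part of that in these shares, or in the median percentiles above, was not tested. The point of highest signal was better defined in tall regions. In those 22, the midpoints of the max-signal interval of the 6 lists lay within a median of 246 bp of one another, and within 500 bp in 16 of 22. In the other 26 the median was 2601 bp, with 6 of 26 within 500 bp. For all chromosomes the corresponding medians were 184 and 1165 bp.

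The tallest region of the complex was chr17:37133773-37141101, in the last part of the class I side. Its WT heights were 281, 225 and 217 steps and its Cgas_KO heights 128, 160 and 105, at percentiles 99.8 to 99.9 in every list. Second was chr17:37095946-37102222, the common region before it, with WT heights of 200, 184 and 207 steps and Cgas_KO heights of 81, 101 and 75, at percentiles 99.2 to 99.7. Next in this portion was chr17:35512288-35524704 near its start, with 123, 114 and 140 steps for WT and 76, 76 and 47 for Cgas_KO. Fewer steps in Cgas_KO were not particular to these regions. Over the common regions of all chromosomes, the library medians were 30, 27 and 29 steps for WT and 24, 24 and 18 for Cgas_KO. In the 2 tallest, the 6 lists placed the highest signal within 128 bp and 31 bp. All 3 stood at or above percentile 98.9 in every list, whereas the lowest common region of the portion, chr17:35632574-35647772, ranged from percentile 26.9 to 85.6.

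In class III the tallest was chr17:35128697-35133403, the first common region after the long stretch without any. Its heights were 143, 101 and 106 steps for WT and 77, 78 and 54 for Cgas_KO, at percentiles 98.9 to 99.3, and its highest point agreed within 88 bp. It was followed by chr17:35449848-35456970 (percentiles 96.3 to 98.1) and chr17:35458040-35479537 (93.6 to 97.3), which stand next to each other just before the border to the class I side. The lowest common region of class III was chr17:35435515-35447778, at percentiles 20.4 to 78.8.

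On the class II side, chr17:34181676-34191997 led, with 115, 138 and 115 steps for WT and 67, 53 and 43 for Cgas_KO, at percentiles 98.3 to 99.5. The region chr17:34382189-34393394 came second, at 98.3 to 98.8 in every list, followed by chr17:34318004-34325681, at 95.6 to 98.5. In the latter the 6 lists placed the highest signal within 75 bp. The lowest common region, chr17:34308229-34313574, lies just before it and reached 8 to 18 steps, at percentiles 7.07 to 75.6.

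The number of peaks in the complex did not overlap between the genotypes, at 131.7 ± 8.39 for WT and 146 ± 3.61 for Cgas_KO (SD over 3 libraries). The two-sided exact permutation p was 0.1, the smallest that 3 against 3 libraries allow, and 0.8 after Benjamini-Hochberg adjustment over 16 measures, so the difference does not pass. With lists matched in length to the shortest the difference of 14.3 peaks fell to 8 (exact permutation p = 0.3, n = 3), and in the top 50% of lists to 6 (exact permutation p = 0.5, n = 3). List lengths overlapped, at 27128 to 28926 peaks for WT and 28052 to 31707 for Cgas_KO. As a share of the list, the complex held 0.474% ± 0.0297 of the peaks in WT and 0.493% ± 0.0362 in Cgas_KO, and these overlapped (n = 3, exact permutation p = 0.5, adjusted 0.889). Density relative to the rest of chromosome 17 was 2.94 ± 0.171 for WT libraries and 3.09 ± 0.246 for Cgas_KO libraries (3 each, SD, exact permutation p = 0.5, adjusted 0.889). The covered length was nearly equal, at 14.2% ± 0.712 and 14.2% ± 1.59 of the complex (n = 3, exact permutation p = 0.9, adjusted 0.96). Median peak widths in the complex were 3647, 3402 and 3687 bp for WT and 3315, 3206 and 2965 bp for Cgas_KO, which did not overlap and did not pass after adjustment (n = 3, exact permutation p = 0.1, adjusted 0.8).

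In no portion did the libraries separate by genotype. The class II side had 29, 37 and 38 peaks in WT and 45, 34 and 42 in Cgas_KO (n = 3, exact permutation p = 0.3, adjusted 0.889). Class III had 33, 27 and 32 against 28, 40 and 36 (n = 3, exact permutation p = 0.4, adjusted 0.889), and the class I side 60, 72 and 67 against 77, 71 and 65 (n = 3, exact permutation p = 0.5, adjusted 0.889). The median height percentile of peaks in the complex was also nearly equal, differing by -0.26 points (Cgas_KO minus WT, n = 3, exact permutation p = 1, adjusted 1).

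Most regions called in 1 genotype only were of a single list. There were 41 of 1 WT list (16.7%, against 31.8% over all chromosomes). Those of 1 Cgas_KO list numbered 71 (28.9%, against 38.1%). Both shares were below those over all chromosomes. None of the 246 was called in all 3 WT lists and no Cgas_KO list, where 0.377% of all regions are. The converse held for 1, chr17:34477821-34484976 on the class II side, where 0.33% of all regions are. Its heights were modest, 13, 13 and 9 steps at percentiles 44.8, 46.1 and 28.1. It lies in the long stretch without common regions. With 2 or 3 lists of 1 genotype and none of the other, there were 5 for WT (2.03%, background 3.02%) and 8 for Cgas_KO (3.25%, background 3.26%). These shares are near or below the background. Of the 65 regions called in all WT lists, 73.8% were in all Cgas_KO lists, and of the 59 called in all Cgas_KO lists 81.4% were in all WT lists. Over all chromosomes these shares were 61.5% and 71.1%. A list holds only peaks above its own lowest total signal, so a region missing from it is not a region measured at 0. That lowest total was 2570, 2453 and 2591 in the WT lists and 1476, 1573.5 and 1022 in the Cgas_KO lists, which did not overlap. The signal step differed between the genotypes as well, so these values are not on a known common scale. How they bear on calls in 1 genotype only was not tested.

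Unequal calls occurred at a few taller regions, named here after their values were seen. At chr17:34059625-34063827 on the class II side, 3 WT lists had peaks of 47, 21 and 36 steps and 1 Cgas_KO list, replicate 2, had one of 21. In the opposite direction, chr17:35900783-35904043 on the class I side had 36, 25 and 19 steps in the Cgas_KO lists and 23 in WT replicate 2 alone. Altogether 8 regions (3.25%) were in 3 WT lists and 1 Cgas_KO list, against 0.989% over all chromosomes, and 2 (0.813%) in the reverse, against 0.654%. Regions in 4 lists, whichever lists these were, were also more frequent in the complex, at 8.13% against 3.47% over all chromosomes. The part of this in the shares above was not tested, so they are not read as a lean to 1 genotype. Fisher's exact test on 3 against 3 libraries cannot go below 0.1 for any region, so none of the regions with unequal calls was tested.

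Relative height was tested at the 48 common regions within a fit of all 4896, on normal scores of the height rank in each library (limma, Benjamini-Hochberg adjustment). No region of the complex passed an adjusted p of 0.05, and 0% of the 4896 did. The lowest limma adjusted p in the complex was 0.388. Without adjustment, 2 of 48 had a p under 0.05, both ranked higher in Cgas_KO, where 9.42% of all common regions reached that level (5.58% higher and 3.84% lower in Cgas_KO). By rank, the 3 libraries of each genotype did not overlap in 4 regions higher and 5 lower in Cgas_KO, against background shares of 8.76% and 7.68%. The rank score was higher in Cgas_KO in 24 of 48. By rank of total signal it was 28 of 48, and on a log2 scale of max signal 18 of 48 (37.5%, against 45.4% of all common regions), so the balance moved with the measure.

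**Figure D5:**
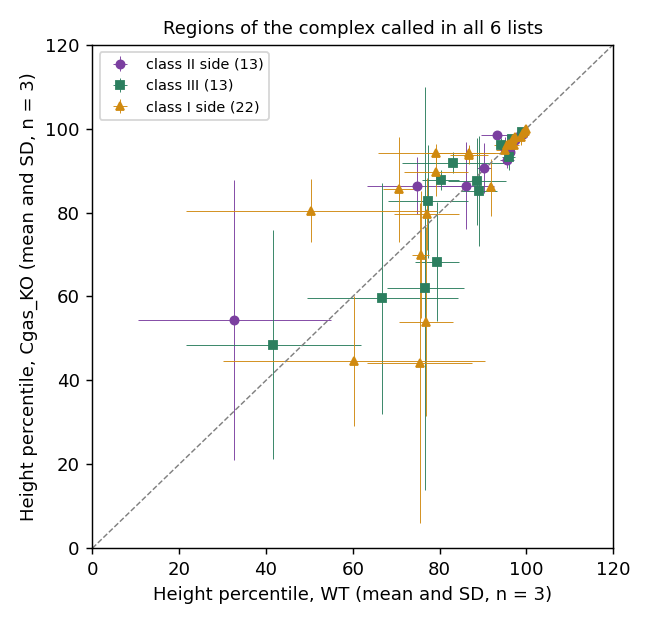
Height percentile of the 48 common regions in WT (horizontal axis) and Cgas_KO (vertical axis), as mean and SD of 3 libraries, with a dashed line of equality and a marker for each portion. Percentiles are compressed near 100, so closeness to the line there does not show equal height.

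The region with the smallest p was chr17:34335114-34357072 on the class II side. Its percentiles were 89.1, 96.4 and 94.2 in WT and 98.2, 98.5 and 98.5 in Cgas_KO, which did not overlap. The score difference was 0.81 (SE 0.24, limma adjusted p = 0.388). In chr17:37143619-37149843, next to the tallest region of the complex, percentiles were 63.7, 87.9 and 86.0 in WT and 95.6, 91.8 and 95.3 in Cgas_KO (difference 0.96, SE 0.34, limma adjusted p = 0.457). The last of this direction, chr17:36215297-36232799, went from 17.4, 62.8 and 71.1 in WT to 85.7, 71.8 and 83.8 in Cgas_KO (difference 1.06, SE 0.45, limma adjusted p = 0.538). By rank among the common regions, which is what was tested, the genotypes overlapped in it. WT replicate 3 stood at percentile 20.1 of these and Cgas_KO replicate 2 at 19.7. There the 6 lists placed the highest signal up to 11782 bp apart, so they need not measure the same site.

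Of the regions ranked lower in Cgas_KO, chr17:36580704-36590793 had the smallest p, at percentiles 78.0, 70.0 and 82.4 in WT and 66.7, 67.2 and 28.1 in Cgas_KO (difference -0.71, SE 0.31, limma adjusted p = 0.538). On the class II side, chr17:34106514-34123928 stood at 95.6, 97.0 and 96.3 in WT and 94.4, 94.8 and 93.9 in Cgas_KO (difference -0.33, SE 0.18, limma adjusted p = 0.592). The last of the named regions, chr17:34292152-34299098, stood at 97.3, 94.7 and 94.5 in WT and 91.1, 94.8 and 91.8 in Cgas_KO (difference -0.40, SE 0.23, limma adjusted p = 0.616), and there the libraries overlapped.

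Heights were also compared as log2 after division by the library median of the 4896 regions. No difference of the tallest regions passed. It was -0.50 (Cgas_KO minus WT) at chr17:37133773-37141101 (SE 0.22, limma adjusted p = 0.245), -0.82 at chr17:37095946-37102222 (SE 0.21, adjusted p = 0.127) and -0.80 at chr17:34181676-34191997 (SE 0.22, adjusted p = 0.128). The median over the 48 was -0.11, and over all 4896 regions it was -0.04. On this scale limma called none of the 48 (0.0204% of all). An unadjusted limma p under 0.05 was reached by 12 of 48, 5 higher and 7 lower in Cgas_KO. Of all 4896, 18.3% reached it, 340 regions higher and 557 lower, so more were lower over all chromosomes too.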

How the data were processed

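CTCF CUT&RUN libraries of thymic Treg fall into 3 WT and 3 Cgas_KO by their genotype label. The tools are Bowtie2 and SEACR 1.3 per the submitters' processing notes, which list mm10 and mm39. The sequence names in the lists belong to mm39. The deposited values are signal, total and maximum per peak, from 1 list per library. They are the authors' own, and the sources used here give neither scaling nor peak threshold. Max signal was a whole multiple of a step within 0.01 step for 100% of peaks under 200 steps.

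Peaks on chromosomes 1 to 19, X and Y were merged at 1 bp. A region belongs to the portion of its midpoint, as does a peak, and a peak belongs to the bin of the midpoint of its max-signal interval. The rest of chromosome 17 runs from its first to its last peak. Tests were exact permutation and sign-flip tests, and limma 3.58.1 (R 4.3.3), tested on simulated data. The rest was done with scipy 1.17.1, pandas 2.3.3, numpy 2.4.6 and matplotlib 3.10.9 under Python 3.11.15. The members, portions and lists were chosen with earlier results of these data known. Named were the 3 tallest and the lowest common regions of each portion, those of 1 genotype only, the 3 smallest limma p in each direction, the widest region and the longest gap. Gene names could not be given to regions. Without known depth, counting intervals are not given. Same replicate numbers were not taken to pair the libraries, except in the alternative with a replicate block. Alternatives were list length, merging, coverage, borders, background, signal measure, a replicate block and leaving out libraries.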

Additional observations from a re-analysis of the deposited data

How the results depend on the processing

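The complex was denser than the rest of chromosome 17 under every alternative run, at 2.97 to 3.06 times with a library left out. With 5 libraries the exact sign-flip test stops at p = 0.0625, so those values cannot pass 0.05. The difference in peaks (Cgas_KO minus WT) was 14.3. It kept its sign in all 9 alternatives, at 8 with lists matched to the shortest (exact permutation p = 0.3, n = 3), 6 in the top 50% (exact permutation p = 0.5, n = 3) and 9.5 to 17 with a library left out, lowest without WT replicate 1. The difference in covered length was -1.48 kb, and -21.1 to 32.4 kb with a library left out. It turned to 13.7 kb without WT replicate 3 and to 32.4 kb without Cgas_KO replicate 3. On the class I side the difference in peaks reversed to -1 when each list was reduced to its top 50% by total signal. The difference in median height percentile was 0.422 by total signal and -2.47 to 1.89 with a library left out, reversing to 1.89 without WT replicate 1 and to 0.968 without Cgas_KO replicate 2. The cause was not tested.

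Common regions numbered 10 when a list had to cover 50% of a region and 18 from midpoints of max-signal intervals within 200 bp. They were then 4.10% and 3.59% of the regions of the complex, against 0.643% and 1.39% over all chromosomes. Regions of the WT lists only numbered 1 at 50% coverage, 1 by midpoints, 1 in the top 50%, 5 with 2 or 3 of 3 lists, and 1 to 4 on omitting 1 library. Those of the Cgas_KO lists only numbered 0, 2, 0 and 8, and 1 to 5 on omitting 1 library. Omission eases the requirement, so a rise is built in. Of the regions named for relative height, chr17:34106514-34123928 reversed to 0.30 by total signal. That measure gave 0.27 in place of 0.81 for chr17:34335114-34357072, 0.42 in place of 0.96 for chr17:37143619-37149843 and 1.63 in place of 1.06 for chr17:36215297-36232799. Without WT replicate 1 the differences were 0.58 for chr17:37143619-37149843, 0.56 for chr17:36215297-36232799 and -0.25, from -0.40, for chr17:34292152-34299098. Without Cgas_KO replicate 3, chr17:36580704-36590793 moved from -0.71 to -0.40.

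With the replicate number as a block, limma called 0 regions of the complex (1 had an unadjusted p under 0.05). Peaks then differed by 14.3 (exact sign-flip p = 0.25, the smallest for 3 pairs). Whether the numbers pair the libraries is not known. A check for pairing gave correlations of -0.0169 to -0.0129 for same-numbered WT and Cgas_KO libraries, and of -0.00261 to 0.0171 for other-numbered ones. For each library these values nearly cancel out, so they do not measure how alike the peak heights of the libraries were. Tall regions stood at similar percentiles in all lists. Correlations this small cannot tell if same-numbered libraries were prepared together. With 3 libraries a group, only differences well above the spread between libraries could be seen, and heights rest on signal of unknown depth.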
